A study of Mus musculus with 16 samples.

Results

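Metformin and resveratrol were compared with each other in white fat of the epididymal depot from male C57BL/6 mice kept on a high-fat diet (HFD). The comparison held 7 of the 16 libraries of the series, 4 from mice given HFD with metformin and 3 from mice given HFD with resveratrol, set beside 4 libraries from mice on HFD alone and 4 from mice on a normal diet. Libraries were taken by their drug label, and 1 resveratrol library with more than 1000 CPM (counts scaled to the library's total) of Crisp1, an epididymal secretory gene, was left out. Crisp1 stood at 12130 CPM in that library and at most at 0.178 CPM in the 3 resveratrol libraries kept. All mice were bought at 6 weeks of age and about 22 g, the diet with 60% fat ran for 8 weeks before treatment, and each drug was given for 6 weeks. The sources used here state neither drug doses nor the route. The labels write the second treatment as "reveratrol" in places, speak of retina in the extraction text and of skeletal muscle in the treatment text, and name epididymal fat in the titles.

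Metformin is a biguanide that lowers liver glucose output, inhibits complex I of the respiratory chain and activates AMP-activated protein kinase (AMPK). Resveratrol is a plant polyphenol best known as a proposed activator of the NAD-dependent deacetylase SIRT1, and it also engages AMPK. In obese epididymal fat, macrophages gather around dying adipocytes, take up lipid and express lysosomal and lipid-handling genes. The pad lies against the epididymis, whose ciliated and secretory epithelium can be caught in a dissection.

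The 7 libraries held between 13734379 and 19567404 mRNA counts. Adipocyte markers summed to between 34959 and 70029.8 CPM in them, while retina markers reached at most 15.9 CPM and skeletal muscle markers at most 131 CPM. The marker genes thus matched the fat named in the titles. The left-out resveratrol library held 2455 CPM of adipocyte markers. One metformin library and one HFD library carry codes found in no title; their group rests on the code prefix, and they are called metformin unmatched and HFD unmatched. The codes of HFD 1 to 3 share a first number that the code of HFD unmatched does not have, and the labels do not say what it stands for. HFD unmatched stood apart from HFD 1 to 3, with 2659.6 CPM of macrophage markers against 5589, 6011 and 6212 CPM. Values of single libraries are given in the order metformin 1, unmatched, 2 and 4, resveratrol 1, 2 and 3, and HFD 1, 2, 3 and unmatched, and single genes are given as CPM scaled by the trimmed mean of M-values (TMM) unless stated. Summed lists and all values of the left-out library are CPM without that scaling. Fold changes are on the log2 scale with the standard error (SE) of the edgeR quasi-likelihood fit, and adjusted p-values are its Benjamini-Hochberg values over 17535 genes, with 0.05 as the threshold.

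Few genes separated the drugs. Metformin over resveratrol passed the threshold for 2 of 17535 genes (0.0114%), Pate2 and Ces5a, both higher under metformin, and 0 passed as lower (0.0%). Both are genes of the male reproductive tract and were among the 1727 tested genes called tract-rich. A gene was called tract-rich when it stood at least 4-fold higher in the left-out resveratrol library than in any HFD library, or at least 4-fold higher in the normal diet library with most ciliated epithelium transcripts than in the other normal diet libraries, or belonged to a list of tract genes. Of the 15808 genes that were not tract-rich, 0 passed, and the lowest adjusted p among them was 0.131. DESeq2, on the same counts, called 40 genes, 29 higher and 11 lower under metformin, of which 28 were not tract-rich. At an unadjusted p below 0.05, edgeR gave 1228 genes (7.0%), 820 higher and 408 lower under metformin. Of these, 247 were tract-rich, 245 of them higher under metformin. The 4 metformin libraries did not overlap the 3 resveratrol libraries for 899 genes (5.13%), 472 above (2.69%) and 427 below (2.44%). With the left-out library kept in, 0 genes passed in edgeR, with 1263 at an unadjusted p below 0.05.

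**Figure D1:**
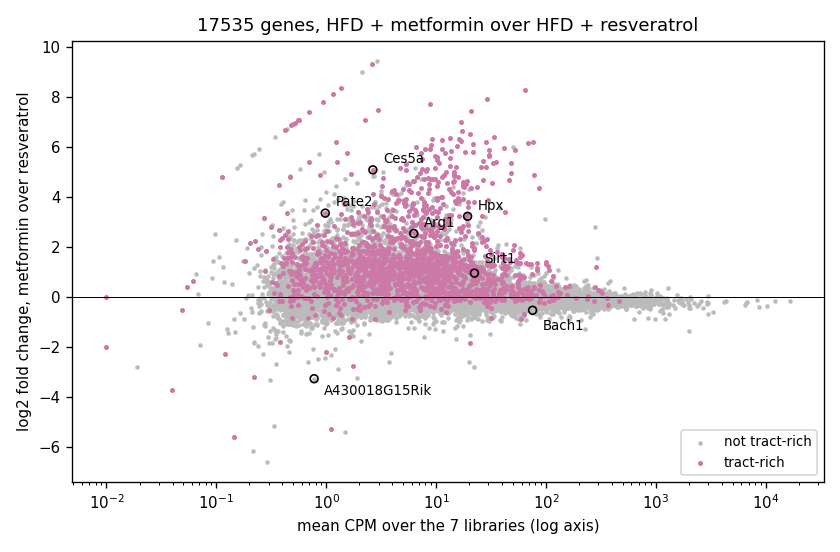
Log2 fold change of metformin over resveratrol (vertical axis) against mean CPM over the 7 libraries (horizontal log axis) for 17535 genes, tract-rich genes in pink and other genes in grey, with 7 genes circled. Tract-rich genes lie mostly above 0, and Ces5a and Pate2 are the 2 that passed the test; fold changes of genes at 0 in one group depend on the prior count and form the diagonal line of points at the upper left.

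Transcripts of the epididymis were present in each of the 4 metformin libraries. Crisp1 was at a steady low level in them, while the summed epididymal genes given below were uneven. Crisp1, which encodes a sperm-coating protein, had 15.4, 15.2, 16.3 and 16.1 CPM without TMM scaling in the metformin libraries, against 0, 0 and 0.178 CPM in the resveratrol libraries. It chose the left-out library and is given without a test. Each metformin value was between 0.125% and 0.135% of the level in the left-out library. HFD libraries had 0 Crisp1 counts, and the normal diet libraries had at most 0.0749 CPM.

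The 2 genes that passed showed the same ordering. Pate2 (chr9:35570284-35690318, GRCm38), a small secreted protein of prostate and testis, had 1.79, 1.75, 1.06 and 1.82 CPM in the metformin libraries, against 0.179, 0.138 and 0.128 CPM in the resveratrol libraries. All 4 metformin values lay above the resveratrol values, and the log2 fold change was 3.37 ± 0.41 (adjusted p = 0.0166). Ces5a (chr8:93499064-93535830), a carboxylesterase secreted by the epididymis, had 3.85, 3.94, 6.05 and 4.41 CPM under metformin, against 0.239, 0.0689 and 0.0638 CPM under resveratrol. The groups did not overlap, with a log2 fold change of 5.10 ± 0.64 (adjusted p = 0.0166). In the left-out resveratrol library Pate2 stood at 1114 CPM and Ces5a at 4202 CPM. Leaving out metformin 4, resveratrol 2 or resveratrol 3 ended both calls, and leaving out resveratrol 1 ended that of Pate2 (adjusted p between 0.0585 and 0.181). Both calls also ended without a count filter, with tract scores as covariates, in the 2 drug groups alone and without the libraries rich in ciliated genes. With the left-out library kept in, the log2 fold changes were -7.35 for Pate2 and -7.76 for Ces5a, neither past the threshold.

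Serpina16, a serine protease inhibitor family member, had 21, 32, 27 and 34 counts in the metformin libraries, against 0 in all 3 resveratrol libraries. That is at least 26.9-fold higher, taking 3 counts over the resveratrol group as the floor, with an adjusted p of 0.0674. Spink8, a protease inhibitor of the epididymis, had 83, 72, 93 and 66 counts under metformin, against 0 under resveratrol, at least 74.0-fold higher on the same floor. Wfdc13, a whey acidic protein family member, had 34, 37, 44 and 22 counts, against 0, at least 32.3-fold higher. The left-out library held 22753, 55340 and 44836 counts of Serpina16, Spink8 and Wfdc13. Svs2, a seminal vesicle gene, went the other way, with 0 counts in each metformin library and 5, 4 and 7 counts in the resveratrol libraries.

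A set of 52 genes, among them Ces5a, Pate2, Serpina16, Spink8 and Wfdc13, with over 200 CPM in the left-out library, at over 100 times their highest level in any HFD or normal diet library, was followed through the 7 libraries, none of which entered the choice. All 52 had counts in each metformin library, while 18, 29 and 18 of them had a count in resveratrol 1, 2 and 3. The median level was 0.0969%, 0.115%, 0.239% and 0.126% of that in the left-out library in metformin 1, unmatched, 2 and 4, against 0%, 0.0109% and 0% in resveratrol 1, 2 and 3. Metformin 1, which had few ciliated transcripts, carried them as the other metformin libraries did. The labels give no sequencing batch, and the part that preparation or sequencing played in these levels was not tested. After the profile of the left-out library, scaled to each library's Crisp1, had been subtracted from the metformin libraries, 0 genes differed between the drugs in edgeR, with 1191 at an unadjusted p below 0.05. The amount taken off followed Crisp1, which also chose the left-out library. It removed most Ces5a and Pate2 reads from the metformin libraries by construction, so the loss of these 2 calls carries no information.

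**Figure D2:**
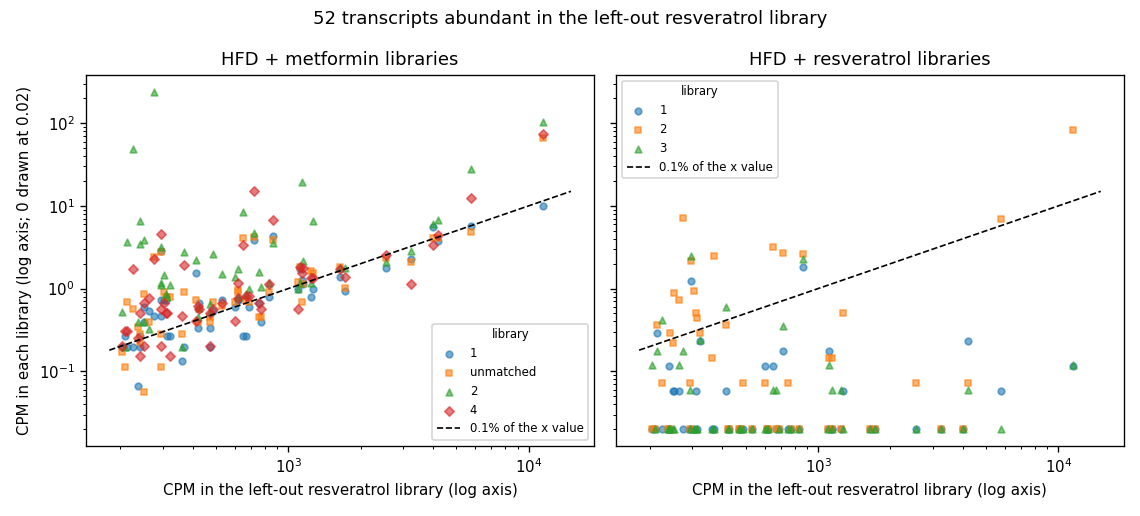
CPM of 52 transcripts in each metformin library (left panel) and each kept resveratrol library (right panel) against CPM in the left-out resveratrol library, on log axes with 0 drawn at 0.02. Most metformin points follow the dashed line at 0.1% of the horizontal value, and most resveratrol points sit at 0.

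Transcripts of ciliated epithelium were spread unevenly over the libraries. Genes of motile cilia summed to 85.1, 1067, 2433 and 719 CPM in the metformin libraries and 92.1, 875 and 129.8 CPM in the resveratrol libraries, against 75.2, 81.8, 57.3 and 74.1 CPM in the HFD libraries. Metformin unmatched, 2 and 4 and resveratrol 2 were thus high, and metformin 1 and resveratrol 1 and 3 were close to HFD alone. Of the 34 ciliary genes tested, 0 differed between the drugs, with a median log2 fold change of 1.99 beside 0.02 over all genes tested, and 3 had an unadjusted p below 0.05. Epididymal principal cell genes, without the widely expressed Mfge8 and Npc2, summed to 52.1, 111, 215 and 125 CPM under metformin, against 1.11, 97.1 and 1.13 CPM under resveratrol. Spermatogenic genes, which serve sperm packaging and motility, summed to 61.4, 101, 4807 and 92.8 CPM under metformin and 56.6, 147 and 48.2 CPM under resveratrol, so that metformin 2 stood apart from the other 6 libraries. Bub1, a mitotic checkpoint kinase also abundant in dividing germ cells, had 1.24, 1.53, 30.3 and 1.62 CPM under metformin and 1.67, 1.17 and 1.02 CPM under resveratrol. Its high value came from metformin 2, as did that of Cpt1b, the muscle-type carnitine palmitoyltransferase, at 6.94, 10.01, 57.98 and 8.47 CPM under metformin and 4.36, 8.88 and 1.85 CPM under resveratrol.

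**Figure D3:**
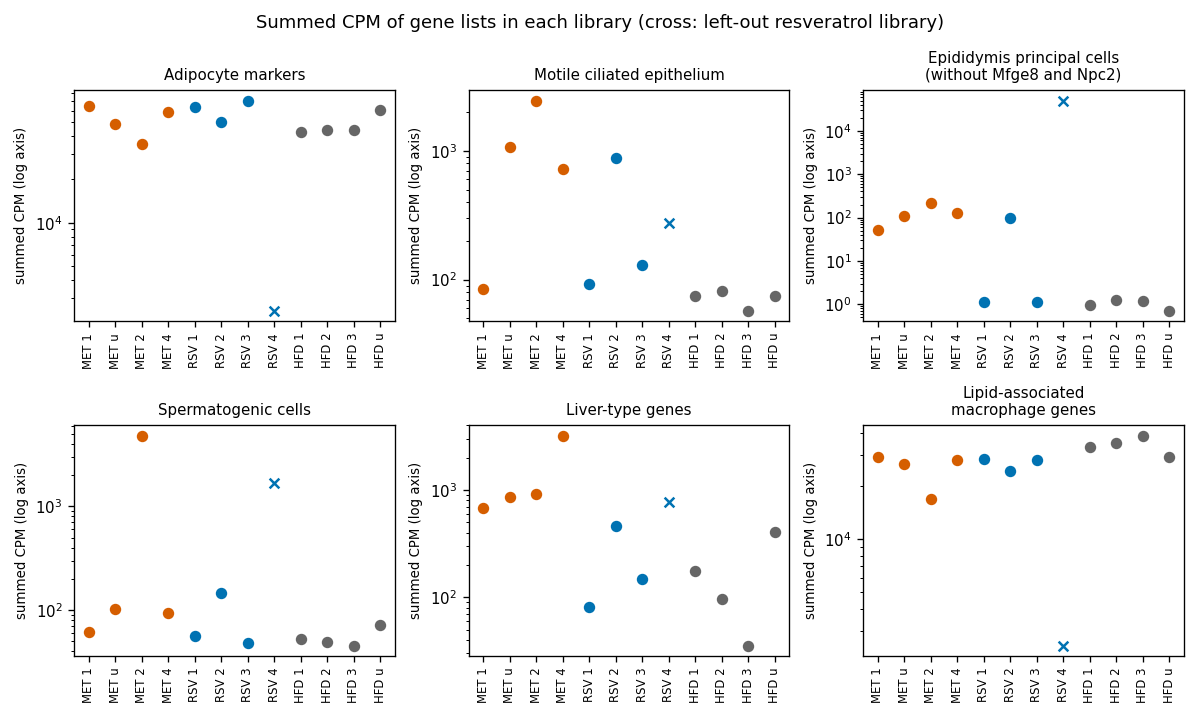
Summed CPM of 6 gene lists (log axes) in each metformin (MET), resveratrol (RSV) and HFD library, where u stands for unmatched and the cross for the left-out resveratrol library. Ciliated epithelium is high in 3 metformin libraries and resveratrol 2. Epididymal genes are above 50 CPM in all 4 metformin libraries, resveratrol 2 and the left-out library. Spermatogenic genes are high in metformin 2 and the left-out library.

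Sirt1, the deacetylase proposed as a target of resveratrol, was among the 5 genes with the lowest p as higher under metformin that were not tract-rich. Sirt1 (chr10:63319005-63381704) had 31.2, 16.2, 36.7 and 29.05 CPM under metformin, against 14.5, 15.1 and 13.6 CPM under resveratrol and 12.5, 11.8, 11.4 and 13.2 CPM on HFD alone. Every metformin library lay above every resveratrol library, with metformin unmatched closest. The log2 fold change of metformin over resveratrol was 0.97 ± 0.21, with a 95% interval of 0.52 to 1.42 and an unadjusted p of 0.000415, and it missed the threshold (adjusted p = 0.399). Without metformin unmatched the difference passed in edgeR (adjusted p = 0.00738), and in DESeq2 it passed with all 7 libraries (adjusted p = 0.0111). Over all alternatives tried, its adjusted p lay between 0.00738 and 1.00. Against HFD alone, Sirt1 passed under metformin (log2 fold change 1.21 ± 0.19, adjusted p = 0.0120) and had 0.24 ± 0.20 under resveratrol (adjusted p = 0.519). These 2 comparisons share the HFD libraries, and the test of the difference between the drugs is the one given above.

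The other 2 genes of that group that are not on the list of liver-type genes given below were Surf6 and Gm8893. Surf6, a nucleolar protein of ribosome assembly, had 21.8, 17.3, 19.5 and 17.8 CPM under metformin and 10.6, 11.7 and 8.56 CPM under resveratrol, without overlap (log2 fold change 0.89 ± 0.18, adjusted p = 0.363). HFD alone had 16.9, 18.4, 12.1 and 17.1 CPM, closer to metformin. The predicted gene Gm8893 had 2.34, 3.06, 2.64 and 6.84 CPM under metformin and 0.358, 0.895 and 0.447 CPM under resveratrol (log2 fold change 2.71 ± 0.57, adjusted p = 0.399). Its highest value was in metformin 4, as for Hpx and the summed liver-type genes given below. The part of liver-type transcripts in the Gm8893 values was not tested.

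Of the 5 genes with the lowest p as lower under metformin, Bach1 was the most abundant. Bach1 (chr16:87698945-87733346), a repressor of heme oxygenase and other antioxidant genes, had 65.3, 62.3, 65.8 and 61.9 CPM under metformin, 87.002, 93.5 and 93.2 CPM under resveratrol and 113, 126, 122 and 99.8 CPM on HFD alone. The metformin libraries lay below the resveratrol libraries, and these below HFD alone, without overlap. Metformin over resveratrol gave a log2 fold change of -0.52 ± 0.12 (adjusted p = 0.5004), metformin over HFD alone -0.85 ± 0.11 (adjusted p = 0.0118) and resveratrol over HFD alone -0.33 ± 0.12 (adjusted p = 0.131). The interval between the drugs, -0.77 to -0.26, lay within 2-fold either way.

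A430018G15Rik, an unnamed locus (chr2:52425012-52431893), had the lowest p of any gene that was not tract-rich. It stood at 0.206, 0.109, 0.235 and 0.101 CPM under metformin, against 1.97, 0.895 and 1.92 CPM under resveratrol and 0.254, 1.28, 0.888 and 1.27 CPM on HFD alone, with a log2 fold change between the drugs of -3.25 ± 0.54 (adjusted p = 0.131). Resveratrol values were like those of HFD 2, 3 and unmatched or above them. It passed without HFD 1 (adjusted p = 0.0221) and in DESeq2 (adjusted p = 0.000844), and its adjusted p reached 1.00 over the alternatives. Zfp568, a zinc-finger repressor of placental Igf2 transcripts, had 16.4, 16.8, 16.04 and 16.7 CPM under metformin and 23.2, 23.3 and 21.3 CPM under resveratrol (log2 fold change -0.45 ± 0.10, adjusted p = 0.399). Adamtsl5, a microfibril-associated matrix protein, had 16.2, 16.1, 11.6 and 14.1 CPM under metformin and 24.1, 19.5 and 22.1 CPM under resveratrol (log2 fold change -0.60 ± 0.13, adjusted p = 0.488). Gm44567, a predicted gene, had 2.61, 3.72, 3.52 and 4.26 CPM under metformin and 7.46, 8.40 and 9.19 CPM under resveratrol (log2 fold change -1.24 ± 0.28, adjusted p = 0.488). In none of these 3 did the groups overlap, and the size of the difference was under 2-fold for Zfp568 and Adamtsl5 across their intervals.

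**Figure D4:**
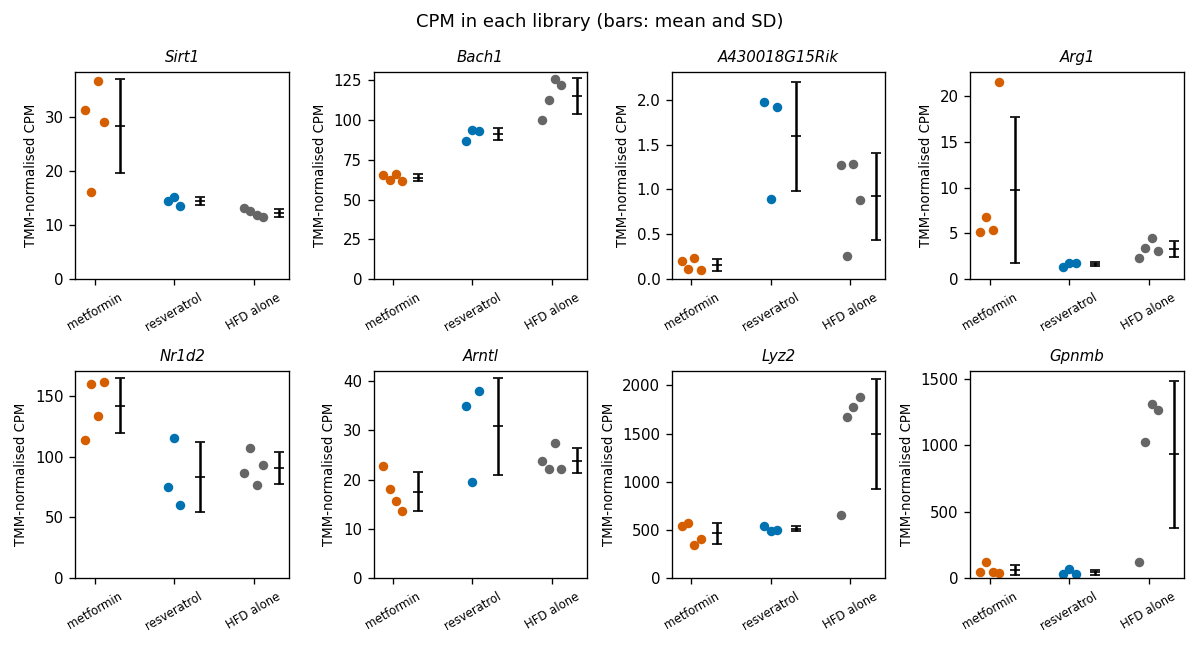
CPM of 8 genes in each metformin, resveratrol and HFD library (points) with the mean and SD of the group (bars at the right of each group). Sirt1 and Arg1 lie above resveratrol in every metformin library, Bach1 below it, and Gpnmb and Lyz2 lie at like levels under both drugs, with HFD unmatched as the lowest of the HFD points.

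Genes typical of liver had higher summed levels in the metformin than in the resveratrol libraries. In edgeR, 0 of 47 such genes passed between the drugs, and 35 had an unadjusted p below 0.05, beside 7.0% of all genes. The list was written after these values had been seen, so its counts are a description and lend no support. It summed to 686, 856, 918 and 3207 CPM under metformin, against 80.6, 466 and 149 CPM under resveratrol. HFD alone had 176, 96.5, 35.4 and 404 CPM. The normal diet libraries held 178, 1379, 763 and 736 CPM, so metformin 1, unmatched and 2 lay within their range. The left-out resveratrol library held 777 CPM. Hpx, the heme scavenger hemopexin, had 15.7, 17.8, 14.4 and 77.6 CPM under metformin and 2.09, 4.48 and 3.38 CPM under resveratrol, with metformin 4 far above the rest (log2 fold change 3.24 ± 0.75, adjusted p = 0.5004). Saa4, a serum amyloid A apolipoprotein, had 1.58, 1.20, 2.00 and 5.02 CPM under metformin and 0.119, 0.207 and 0.128 CPM under resveratrol (log2 fold change 3.97 ± 0.91, adjusted p = 0.488). The major urinary proteins, pheromone carriers made by liver, were level across the metformin libraries. Without TMM scaling, Mup17 had 21.8, 21.9, 24.2 and 21.1 CPM in them, 0.7, 6.04 and 1.66 CPM in resveratrol 1, 2 and 3, and 22.9 CPM in the left-out library. Mup9, which is tract-rich by its level in the left-out library, had 1.86, 2.02, 2.35 and 2.33 CPM under metformin and 0.0597, 0.0689 and 0 CPM under resveratrol (log2 fold change 5.43 ± 1.03, adjusted p = 0.253). Mup genes are near-identical copies, and how their reads were shared out is uncertain. Of the 28 genes that DESeq2 called outside the tract-rich set, 8 were on the liver-type list. Arg1, given below, was also among the 28 and is not on that list, so 8 is not a full count of genes made in liver. That list holds 47 of the 17535 genes tested and was written after these values had been seen, so the overlap is a description only. Arg1, an arginase of alternatively activated macrophages and of the liver urea cycle, had 5.16, 6.84, 5.35 and 21.6 CPM under metformin and 1.37, 1.79 and 1.79 CPM under resveratrol. Its groups did not overlap, its log2 fold change was 2.56 ± 0.63 (adjusted p = 0.626), and its highest library was metformin 4, as for Hpx. The part of liver-type transcripts in the Arg1 values was not tested.

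Genes of AMPK, the sirtuins and the respiratory chain mostly lay within 2-fold between the drugs. This was read from the 95% interval of metformin over resveratrol: an interval within -1 and 1 on the log2 scale places the difference within 2-fold either way. That held for 11547 of 17535 genes (65.9%), and for 9372 of the 11220 genes with at least 10 CPM (83.5%). It held for 71.5% of the genes that were not tract-rich and 14.6% of the tract-rich ones. Of 14 AMPK subunits and upstream kinases, 13 had such an interval and 0 differed (0 at an unadjusted p below 0.05), with a median log2 fold change of -0.03. Prkaa1, the widely expressed catalytic subunit, had 106, 99.04, 84.8 and 95.7 CPM under metformin and 104, 92.2 and 109 CPM under resveratrol (interval -0.27 to 0.11). Prkaa2, the other catalytic subunit, was the exception, at 21.8, 34.8, 32.1 and 18.4 CPM under metformin and 26.6, 15.4 and 20.2 CPM under resveratrol (interval -0.28 to 1.01). Stk11, which encodes the upstream kinase LKB1, had an interval of -0.37 to 0.06. Of 20 genes of drug transport and drug response, 13 had an interval within 2-fold, 0 passed in edgeR and 2 had an unadjusted p below 0.05. Slc47a1, an exporter that carries metformin out of cells, had 0.206, 1.37, 3.11 and 3.14 CPM under metformin and 0, 0.757 and 0.128 CPM under resveratrol, with overlap (interval 0.15 to 5.38).

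All 35 nuclear-encoded complex I genes tested, all 34 genes of complexes III to V and all 13 mitochondrially encoded genes had intervals within 2-fold, with 0 differing between the drugs in edgeR (2, 1 and 0 at an unadjusted p below 0.05). Median log2 fold changes of these lists were -0.01, -0.07 and -0.17. In the list of sirtuins and NAD metabolism, 14 of 15 genes had such an interval, Sirt1 being the exception. Sirt3, the mitochondrial deacetylase, had 13.3, 16.02, 16.98 and 16.3 CPM under metformin and 12.2, 14.3 and 11.4 CPM under resveratrol (interval -0.04 to 0.66). Against HFD alone, 4 members of the list passed as higher under metformin (6.09% of all genes) and 0 under resveratrol (1.09% of all genes). Besides Sirt1, these included Sirt3 (log2 fold change 0.62 ± 0.15, adjusted p = 0.0229) and Nmrk1, a nicotinamide riboside kinase (log2 fold change 0.43 ± 0.13, adjusted p = 0.0433). Under resveratrol, Sirt3 had 0.31 ± 0.16 (adjusted p = 0.276) and Nmrk1 0.19 ± 0.14 (adjusted p = 0.439). Of 12 genes of PGC-1 and mitochondrial biogenesis, 9 had an interval within 2-fold, beside 65.9% of all genes and 83.5% of those with at least 10 CPM. Ppargc1a, the coactivator PGC-1α of mitochondrial biogenesis, had 7.77, 16.4, 15.2 and 17.03 CPM under metformin and 8.00, 17.2 and 6.58 CPM under resveratrol, against 4.11, 2.82, 5.43 and 4.83 CPM on HFD alone. The drug groups overlapped, and each library of both lay above the HFD libraries. Metformin unmatched, 2 and 4 and resveratrol 2 were the highest, and these were also the drug libraries with over 500 CPM of ciliated genes. Metformin passed against HFD (log2 fold change 1.71 ± 0.37, adjusted p = 0.0163), and resveratrol had 1.30 ± 0.39 (adjusted p = 0.0742).

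Clock genes gave 4 of 19 members an unadjusted p below 0.05 between the drugs, beside 7.0% of all genes, with 0 past the adjusted threshold. The repressor gene Nr1d2 had 114, 159.6, 133 and 161 CPM under metformin and 74.7, 115 and 60.02 CPM under resveratrol (log2 fold change 0.77 ± 0.20). Dbp, a clock output factor, had 16.4, 43.3, 35.7 and 45.3 CPM under metformin and 7.94, 29.3 and 7.92 CPM under resveratrol (1.23 ± 0.52). The activator gene Arntl, which encodes BMAL1, stood at 22.8, 18.05, 15.7 and 13.6 CPM under metformin and 34.9, 19.6 and 37.99 CPM under resveratrol (-0.81 ± 0.22), and the repressor gene Nfil3 at 7.43, 6.29, 5.23 and 4.21 CPM under metformin and 8.18, 8.95 and 12.3 CPM under resveratrol (-0.76 ± 0.22). All 4 had an adjusted p of 0.709. Resveratrol 2 was the resveratrol library nearest to metformin for Nr1d2, Dbp and Arntl, and it was also the one with ciliated transcripts. The part of the hour of collection was not tested.

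Of the members with the lowest p in other lists, 6 are given here, and 0 of them passed. Ppara, a fatty acid sensor, had 13.3, 20.6, 15.9 and 21.8 CPM under metformin and 10.2, 13.5 and 8.56 CPM under resveratrol (0.74 ± 0.25, adjusted p = 0.709). Fkbp5, a glucocorticoid-induced chaperone that is tract-rich here, had 68.1, 80.9, 78.5 and 146 CPM under metformin and 27.8, 48.2 and 69.4 CPM under resveratrol (0.95 ± 0.34). Cd248, a preadipocyte surface protein, had 92.1, 73.8, 51.7 and 55.5 CPM under metformin and 102, 86.3 and 139 CPM under resveratrol (-0.68 ± 0.20). Thbs1, the matrix protein thrombospondin 1, had 2403, 982, 810.1 and 644 CPM under metformin and 2708, 1150.0 and 5309.6 CPM under resveratrol, with resveratrol 3 highest (-1.34 ± 0.51). Cxcl10, an interferon-induced chemokine, had 1.38, 0.438, 0.705 and 1.01 CPM under metformin and 2.63, 1.58 and 1.98 CPM under resveratrol, without overlap (-1.22 ± 0.44). Tnfaip6, an inflammation-induced hyaluronan-binding protein, had 3.09, 2.68, 1.94 and 1.57 CPM under metformin and 3.70, 3.99 and 5.62 CPM under resveratrol (-0.93 ± 0.33). Each of Fkbp5, Cd248, Thbs1, Cxcl10 and Tnfaip6 had an adjusted p of 0.709.

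Against HFD alone, each drug was set beside the same 4 HFD libraries. Under metformin, 1068 genes were higher and 1374 lower (13.9% of 17535 called), of which 372 of the higher and 17 of the lower ones were tract-rich. Under resveratrol, 191 were higher and 541 lower (4.17% called), of which 13 and 9 were tract-rich. A total of 624 genes passed under both, 25.6% of the metformin calls and 85.2% of the resveratrol calls, 129 higher under both, 495 lower under both and 0 in opposite directions; the shared HFD libraries bear on that count. Of the 624, 510 had an interval between the drugs within 2-fold, beside 65.9% of all genes and 83.5% of those with at least 10 CPM. The resveratrol count rested on single libraries. It was 1 without HFD 2, HFD 3, resveratrol 1 or resveratrol 3, and 2 without HFD 1 or resveratrol 2. In these fits, 2705 to 3363 genes had an unadjusted p below 0.05. It was 2066 without HFD unmatched, 447 without metformin unmatched and 1317 without metformin 2, the metformin libraries entering through the shared spread. The metformin count was 469 to 595 without HFD 1, 2 or 3, 3710 without metformin 1 and 1106 without metformin 2. Without the libraries with over 500 CPM of ciliated genes, which leaves 1 metformin and 2 resveratrol libraries, 18 genes passed under metformin and 17 under resveratrol in edgeR, with 2846 and 4420 at an unadjusted p below 0.05.

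Many macrophage genes passed as lower than HFD alone, in numbers that rested on single libraries. Of 25 genes of lipid-associated macrophages, 15 passed as lower than HFD alone under metformin (7.84% of all genes) and 12 under resveratrol (3.09% of all genes), with 0 higher under either. Median log2 fold changes were -1.26 under metformin and -1.19 under resveratrol, beside 0.04 over all genes for each drug. The list was written with earlier results of these data known, and 3 of its genes are also adipocyte markers. Of 27 macrophage markers, 16 were lower under metformin and 9 under resveratrol. Under resveratrol, 0 members of either list passed without HFD 1, 2 or 3 or resveratrol 1, 2 or 3, each left out alone. Under metformin, 7 to 9 of the first list and 8 to 10 of the second passed without HFD 1, 2 or 3, and 10 of the second without metformin 2. Without HFD unmatched, 16 members of the first list passed under metformin and 17 under resveratrol, and 16 and 15 of the second. Without the libraries rich in ciliated genes, 0 members of both lists passed under each drug. Macrophage markers summed to 2413, 2545, 1831 and 2154 CPM under metformin and 2288, 2353 and 2269 CPM under resveratrol. Fewer macrophages and less of these transcripts per macrophage cannot be told apart in bulk tissue.

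Gpnmb, a transmembrane glycoprotein of lipid-laden macrophages, had 47.9, 118, 45.3 and 40.04 CPM under metformin and 33.9, 64.5 and 28.9 CPM under resveratrol, against 1021, 1310.1, 1264 and 124 CPM on HFD alone. Both drug groups sat near HFD unmatched and far below HFD 1 to 3. The log2 fold change over HFD alone was -3.89 ± 0.78 for metformin (adjusted p = 0.0127) and -4.46 ± 0.91 for resveratrol (adjusted p = 0.0360). Trem2, the lipid receptor of these cells, had 7.63, 14.5, 7.99 and 6.84 CPM under metformin and 6.87, 11.4 and 4.98 CPM under resveratrol, against 124, 149, 165 and 15.9 CPM on HFD alone. Itgax, which encodes CD11c, had 16.2, 39.3, 12.7 and 13.6 CPM under metformin and 13.7, 20.4 and 9.13 CPM under resveratrol, against 205, 260.2, 272 and 36.5 CPM on HFD alone. Atp6v0d2, a subunit of the lysosomal proton pump, had 6.94, 20.1, 4.93 and 5.58 CPM under metformin and 3.64, 6.34 and 3.77 CPM under resveratrol, against 146, 172, 208 and 14.1 CPM on HFD alone. Metformin unmatched was the highest metformin library for Gpnmb, Trem2, Itgax and Atp6v0d2. Their intervals between the drugs were wide, -1.09 to 2.23 for Gpnmb and -1.48 to 2.001 for Trem2, and reach beyond 2-fold.

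Other macrophage genes had narrower intervals. Adgre1, which encodes F4/80, had 91.998, 94.1, 59.2 and 65.3 CPM under metformin and 82.5, 74.8 and 79.9 CPM under resveratrol, against 339, 391, 403 and 113 CPM on HFD alone. Its interval between the drugs was -0.80 to 0.75, and its log2 fold change over HFD alone was -2.004 ± 0.34 under metformin (adjusted p = 0.0120) and -1.98 ± 0.38 under resveratrol (adjusted p = 0.0360). Lyz2, the lysozyme of myeloid cells, had 539.6, 571, 342 and 408 CPM under metformin and 545, 493 and 502 CPM under resveratrol, against 1668, 1781, 1878 and 655 CPM on HFD alone (interval between the drugs -0.81 to 0.53). Psap, the precursor of the lysosomal saposins, had 2106, 2100.2, 1263 and 1919 CPM under metformin and 1932, 1783 and 1999 CPM under resveratrol, against 4651, 5121, 5188 and 2402 CPM on HFD alone (interval -0.60 to 0.51). Pla2g7, a lipoprotein-associated phospholipase, had an interval of -0.31 to 0.86 and was lower than HFD alone under metformin (-0.92 ± 0.25, adjusted p = 0.0341) and resveratrol (-1.19 ± 0.28, adjusted p = 0.0372).

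The promoters of the 12 lipid-associated macrophage genes that passed as lower under both drugs were searched for CACGTG, the E-box read by the MiT family factors that control lysosomal genes. RefSeq promoter windows on build GRCm38.p6, from 250 bases before to 50 after the transcript start, were at hand for 10 of the 12. The motif is its own reverse complement, so both strands were read at once. It stood in 2 of the 10, Ctsl and Plin2, where a gene counted if any of its windows held it. Of all 32851 windows of the same length, 7.15% hold it, which is a share of windows and not of genes. Both are shown because they moved together under the drugs and carry the motif, which is in capitals. Ctsl encodes the lysosomal protease cathepsin L and Plin2 a lipid droplet coat protein.
Ctsl, chr13:64370471-64370770, minus strand: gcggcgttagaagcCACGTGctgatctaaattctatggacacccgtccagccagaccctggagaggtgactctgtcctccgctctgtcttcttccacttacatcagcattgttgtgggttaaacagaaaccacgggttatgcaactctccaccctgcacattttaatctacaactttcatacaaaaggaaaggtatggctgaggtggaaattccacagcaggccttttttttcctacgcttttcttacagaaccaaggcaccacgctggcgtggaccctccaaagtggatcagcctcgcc
Plin2, chr4:86670010-86670309, minus strand: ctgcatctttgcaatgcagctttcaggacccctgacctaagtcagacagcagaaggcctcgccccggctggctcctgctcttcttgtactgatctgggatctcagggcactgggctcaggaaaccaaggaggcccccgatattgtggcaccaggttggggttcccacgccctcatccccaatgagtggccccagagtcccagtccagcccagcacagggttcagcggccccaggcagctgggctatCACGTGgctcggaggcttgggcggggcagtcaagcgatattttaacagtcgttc
The E-box begins 236 bases before the transcript start in Ctsl and 4 bases before it in Plin2. Ctsl had a log2 fold change over HFD alone of -1.08 under metformin (adjusted p = 0.0187) and -1.22 under resveratrol (adjusted p = 0.0365), with an interval between the drugs of -0.44 to 0.71. Plin2 had -1.46 under metformin (adjusted p = 0.0123) and -1.38 under resveratrol (adjusted p = 0.0365), with an interval between the drugs of -0.72 to 0.56.

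Antigen-presentation and inflammatory genes included members lower than HFD alone under each drug. Of 17 genes of MHC class II and antigen processing, 11 were lower than HFD alone under metformin (7.84% of all genes) and 8 under resveratrol (3.09% of all genes). Intervals between the drugs lay within 2-fold for 15 of 17 (65.9% of all genes). Under resveratrol 0 passed without any one of HFD 1 to 3 or resveratrol 1 to 3, while under metformin 10 to 12 passed without any single library. Without the libraries rich in ciliated genes, 0 passed under either drug. Cd74, the invariant chain, had 468, 553, 341 and 422 CPM under metformin and 412, 463 and 372 CPM under resveratrol, against 1031, 1056, 1034 and 613 CPM on HFD alone (interval -0.31 to 0.52). Tapbp, the tapasin of class I loading, was lower under metformin (-0.63 ± 0.12, adjusted p = 0.0123) and had -0.50 ± 0.13 under resveratrol (adjusted p = 0.0540). Of 24 cytokine and chemokine genes tested, 6 were lower under metformin (7.84% of all genes) and 3 under resveratrol (3.09% of all genes). Tnf, the tumour necrosis factor gene, had 0.756, 0.711, 0.235 and 0.456 CPM under metformin and 0.478, 0.207 and 0.383 CPM under resveratrol, against 1.88, 2.10, 2.30 and 1.03 CPM on HFD alone, and passed under metformin (-1.75 ± 0.47, adjusted p = 0.0325) and resveratrol (-2.33 ± 0.55, adjusted p = 0.0371). Ccl2, the monocyte chemoattractant gene, was lower under metformin (-1.83 ± 0.40, adjusted p = 0.0163) and had -1.42 ± 0.43 under resveratrol (adjusted p = 0.0781). The difference between the drugs was -0.41 ± 0.42 for Ccl2 (adjusted p = 0.810), which did not pass. Ubd, an inflammation-induced ubiquitin-like gene, had 2.89, 4.43, 1.35 and 3.65 CPM under metformin and 1.31, 3.10 and 1.40 CPM under resveratrol, against 47.8, 43.003, 69.4 and 8.27 CPM on HFD alone. Cd14, a co-receptor for endotoxin, was lower under metformin (-0.85 ± 0.23, adjusted p = 0.0328) and had -0.41 ± 0.25 under resveratrol (adjusted p = 0.343).

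**Figure D5:**
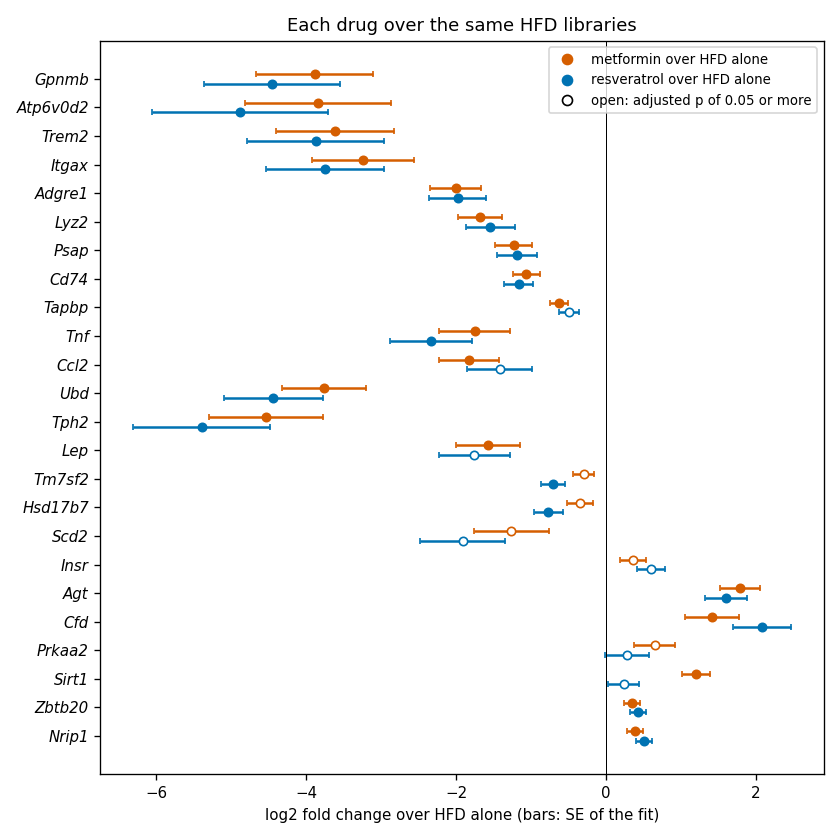
Log2 fold change over HFD alone of 24 genes under metformin and under resveratrol (points, with SE bars; filled points passed the adjusted threshold). Both drugs were set against the same HFD libraries, so the pairs are shown side by side and not as independent results; Sirt1 is the gene where the points lie furthest apart among those higher than HFD alone.

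Of 19 adipokine genes, 0 differed between the drugs, and 7 had an interval within 2-fold (65.9% of all genes). Lep, the leptin gene, had 1010.3, 1344, 646 and 1296 CPM under metformin and 1042, 1140.4 and 649 CPM under resveratrol, against 3432, 2874, 4408 and 2040.3 CPM on HFD alone. It passed as lower under metformin (-1.57 ± 0.43, adjusted p = 0.0342) and had -1.76 ± 0.48 under resveratrol (adjusted p = 0.0560). Adipoq, the adiponectin gene, had 3449.8, 2307, 1315 and 2341 CPM under metformin and 3266, 2145 and 4044 CPM under resveratrol, with an interval between the drugs of -1.12 to 0.27. Cfd, which encodes adipsin, had 2519.9, 1893, 2302 and 2733 CPM under metformin and 3103, 3321 and 4864 CPM under resveratrol, against 521, 807, 479 and 1738 CPM on HFD alone. It was higher than HFD alone under metformin (1.41 ± 0.36, adjusted p = 0.0266) and resveratrol (2.09 ± 0.38, adjusted p = 0.0360), and the metformin libraries lay below the resveratrol libraries (-0.67 ± 0.38, adjusted p = 0.723). The resveratrol call of Cfd was lost without HFD 1, 2 or 3 or resveratrol 1 or 3, each left out alone, where 0 genes passed as higher. Agt, the angiotensinogen gene, had 139, 175, 309 and 197 CPM under metformin and 156, 202 and 183 CPM under resveratrol, against 39.2, 56.4, 48.7 and 92.95 CPM on HFD alone (interval between the drugs -0.43 to 0.80). Tph2, a serotonin-synthesis enzyme best known from neurons, had 3.03, 2.08, 0.411 and 4.66 CPM under metformin and 2.15, 1.10 and 0.958 CPM under resveratrol, against 73.1, 50.1, 107 and 7.79 CPM on HFD alone.

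Insulin signalling and adipocyte factors gave 28 of 30 and 14 of 19 intervals within 2-fold. Over all genes the share was 65.9%, and 83.5% over those with at least 10 CPM. The interval was -0.64 to 0.17 for the insulin receptor gene Insr, -0.55 to 0.47 for the glucose transporter gene Slc2a4 and -0.65 to 0.41 for Pparg, the master regulator of fat cell formation. Irf4, a transcription factor of fasting and of immune cells, had 55.8, 19.96, 12.3 and 17.1 CPM under metformin and 41.4, 21.8 and 47.2 CPM under resveratrol, with overlap. Fatty acid synthesis genes Fasn and Scd1 had intervals of -1.02 to 1.10 and -0.78 to 0.47. Scd2, a further desaturase, had 214, 554, 452 and 578 CPM under metformin and 239, 463 and 159 CPM under resveratrol, against 1143, 1128, 1559 and 481 CPM on HFD alone. Cholesterol synthesis genes were lower than HFD alone for 7 of 25 members under metformin (7.84% of all genes) and 7 of 25 under resveratrol (3.09% of all genes), with medians of -0.42 and -0.61. Without HFD 1, 2 or 3, left out in turn, 1, 3 and 0 passed under metformin, and 0 under resveratrol, as without any one of resveratrol 1 to 3. Without HFD unmatched, 11 passed under metformin and 13 under resveratrol, and without the libraries rich in ciliated genes 0 under either. Hsd17b7, a late enzyme of the pathway, had 17.2, 22.1, 17.4 and 21.8 CPM under metformin and 13.3, 15.9 and 14.9 CPM under resveratrol, without overlap (0.42 ± 0.19, adjusted p = 0.710). Tm7sf2, a sterol reductase that is tract-rich here, had 8.53, 7.93, 6.99 and 9.02 CPM under metformin and 5.97, 6.20 and 6.13 CPM under resveratrol (0.41 ± 0.16, adjusted p = 0.709). Extracellular matrix genes passed as lower than HFD alone for 11 of 37 members under metformin (7.84% of all genes) and 0 under resveratrol (3.09% of all genes), with 17 at an unadjusted p below 0.05 under resveratrol. Their medians were -0.54 and -0.51, and 0 of 37 differed between the drugs in edgeR (3 at an unadjusted p below 0.05).

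The most abundant genes that passed under both drugs against HFD alone, with an interval between the drugs within 2-fold, were of other kinds. The higher ones were Zbtb20, Scn7a, Ivns1abp, Ccni and Nrip1. Under resveratrol, 0 genes passed as higher without HFD 1, 2 or 3 or resveratrol 1 or 3, each left out alone, and 1 without resveratrol 2. Zbtb20, a zinc-finger repressor, had 847, 864, 787 and 911 CPM under metformin and 849.9, 901 and 947 CPM under resveratrol, against 655, 614, 612 and 795 CPM on HFD alone. Nrip1, a nuclear receptor corepressor of energy use in fat, had 324, 282, 273 and 344 CPM under metformin and 365, 280.4 and 351 CPM under resveratrol, against 223, 229, 224 and 259 CPM on HFD alone. Intervals between the drugs were -0.32 to 0.16 for Zbtb20, -0.57 to 0.16 for the sodium-sensing channel gene Scn7a, -0.44 to 0.29 for Ivns1abp, -0.27 to 0.12 for Ccni and -0.36 to 0.12 for Nrip1. The lower ones were Psap, Lyz2, Cd74, Tmsb4x and Mlec. At most 2 genes passed as lower under resveratrol without any one of HFD 1 to 3 or resveratrol 1 to 3. Tmsb4x, which encodes the actin-binding thymosin β4, had 455, 484, 319.6 and 380.0 CPM under metformin and 448, 476 and 415 CPM under resveratrol, against 756, 816, 1006 and 519 CPM on HFD alone. Mlec, a lectin of glycoprotein quality control, had 444, 445, 361 and 433 CPM under metformin and 422, 392 and 429.6 CPM under resveratrol, against 635, 607, 712 and 515 CPM on HFD alone (interval between the drugs -0.22 to 0.26).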

How the data were processed

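Per the labels' protocols, libraries were made from total RNA with the TruSeq kit and sequenced on a NovaSeq. The authors deposited unnormalised counts, all whole numbers, for mRNA transcripts, and FPKM. HISAT2, fastp and the build GRCm38 are listed in the submitters' processing notes. The counting tool, the annotation release and the strand setting were not given in the sources used here. The header row of the count table has 1 name fewer than its lines have cells, so counts were read as the last 16 cells of a line, in header order, and 5 broken records were rejoined. Transcript counts (91879 rows) were added up within each gene identifier, giving 27150 genes. The 16 FPKM columns and the table of non-coding transcripts were not used here. Of the 16 count columns, 14 matched a sample title and 2 matched a group only.

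Genes were filtered with filterByExpr, normalised by TMM and tested two-sided in edgeR 4.0.16 under R 4.3.3, with a robust quasi-likelihood fit to 15 libraries and group as the only factor. Intervals took the standard error and degrees of freedom of that fit. A pseudocount of 0.5 CPM was used in the tract-rich ratios. Library pairs within a drug group differed beyond sampling noise (chi-square per degree of freedom 24.6 to 123 in the 7 libraries). The labels give no batch and do not say whether each library is a separate animal, so the p-values reflect only how much the libraries vary. The fit was checked on simulated counts. Alternatives were DESeq2 1.42.0, no count filter, the left-out library kept, single libraries left out and libraries rich in ciliated genes left out. Further ones were tract scores as covariates, the 2 drug groups alone, and subtraction of the left-out library's Crisp1-scaled profile from the metformin libraries.

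Named genes followed a rule: where none passed outside the tract-rich set, the 5 lowest p-values in each direction there, up to 4 tract-rich genes, up to 4 genes of each list, a fixed list of 22 genes, and the most abundant genes called against HFD alone under both drugs; of these, the text gives a selection, and Spink8, Wfdc13, Svs2, Mup17, Ctsl and Plin2 were chosen after their values were seen. The members and lists were chosen with earlier results of these data known. One gene that the rule names is not reported here.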

Additional observations from a re-analysis of the deposited data

Results flagged for a closer look

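The 2 genes that passed between the drugs were Pate2, with a log2 fold change of 3.37, and Ces5a, with 5.10; both are higher under metformin and tract-rich.

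Among 156 groups of 4 libraries checked, 22 had 1 library set apart by Dixon's 95% criterion, which chance gives in about 1 of 20 groups of normally distributed values. Metformin unmatched was highest for Itgax (39.3 CPM), Trem2 (14.5 CPM), Gpnmb (118 CPM) and Atp6v0d2 (20.1 CPM). Metformin 2 was highest for summed spermatogenic genes (4807 CPM), Bub1 (30.3 CPM) and Cpt1b (58.0 CPM), and lowest for Pate2 (1.06 CPM) and Mlec (361 CPM). Metformin 4 was highest for summed liver-type genes (3207 CPM), Hpx (77.6 CPM), Arg1 (21.6 CPM), Fkbp5 (146 CPM) and Gm8893 (6.84 CPM). HFD unmatched was highest for summed adipocyte markers (60306.5 CPM), Adipoq (3063 CPM), Slc2a4 (156 CPM), Scn7a (531 CPM), Ivns1abp (491 CPM) and Nrip1 (259 CPM), and lowest for Cd74 (613 CPM). HFD 2 alone held Serpina16 (0.0513 CPM, near the floor) among the HFD libraries. With 0 in the others, any value above 0 gives this flag.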

How the results depend on the processing

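With the left-out resveratrol library kept in, 0 genes differed between the drugs, 179 differed from HFD alone under metformin and 395 under resveratrol; log2 fold changes reversed to -7.35 for Pate2, -7.76 for Ces5a and -7.89 for Serpina16 between the drugs, and to 1.02 for Tm7sf2 and 0.0041 for Mlec under resveratrol over HFD alone. DESeq2 gave 40 genes between the drugs, 28 of them not tract-rich, and 4388 and 2141 genes under metformin and resveratrol against HFD alone. Without a count filter, 0, 1541 and 351 genes passed in the same 3 comparisons, and with tract scores as covariates 0, 1 and 1370. Without the libraries rich in ciliated genes, 2 of the genes between the drugs were not tract-rich (Rnf6 and Gm5555, both lower under metformin), and 18 and 17 genes differed from HFD alone; the lone metformin library is then assumed to vary like the other groups. Only the 2 drug groups, and subtraction of the left-out library's Crisp1-scaled profile, each gave 0 genes between the drugs. The subtraction takes most Pate2 and Ces5a reads out of the metformin libraries by construction. The edgeR counts of 0 stood beside 1263 (left-out library kept), 1946 (no filter), 636 (covariates), 571 (drug groups alone) and 1191 (subtraction) genes at an unadjusted p below 0.05. Leaving out 1 library at a time gave 0 to 3 genes between the drugs, 0 to 1 not tract-rich, 469 to 3710 under metformin and 1 to 2066 under resveratrol against HFD alone, and 10403 to 11954 intervals within 2-fold. A 90% interval gave 12311. Other cut-offs for tract-rich genes, at 2-fold and 8-fold, left 0 genes, as did leaving out liver-type genes, an alternative chosen after seeing the data, as were the list counts with libraries left out. The cause was not tested. Among alternative values of the single named genes, 2657 kept direction and side of the threshold where tested, or stayed within 1 SD where untested. Of the tested values, 399 lost the threshold, 40 gained it and 5 reversed, and 53 untested values moved beyond 1 SD. No paired analysis was run, because the labels do not say what the numbers in the codes stand for. The replicate numbers used here follow the order of the samples. With 3 and 4 libraries a group, genes under 10 CPM had intervals mostly too wide to place them within 2-fold.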
